A study of Mus musculus with 40 samples.

Results

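The comparison described here is the effect of orchiectomy, the surgical removal of the testes, on messenger RNA in the supernatant fraction of the hypothalamus of mice on a high-fat diet (HFD). Its members are the 7 supernatant libraries labelled GDX-HFD and the 6 labelled Sham-HFD, 13 of the 40 libraries of the series, taken by fraction and group from the names of the columns. All mice carried the Aldh1l1 eGFP-L10a transgene, in which the Aldh1l1 promoter puts a fluorescent tag on the ribosomal protein L10a of astrocytes, and tissue was microdissected hypothalamus. Translating ribosome affinity purification (TRAP) pulled the tagged astrocyte ribosomes out of each lysate, and the supernatant is the RNA that was left: mostly that of neurons, oligodendrocytes and other cells, poorer in astrocyte messages. Orchiectomised mice on HFD had lost their testes and ate HFD for 4 weeks. Sham mice on HFD kept their testes and ate the same diet. A further 7 supernatant libraries came from sham mice on chow; they entered the estimate of the spread and are given beside the results. The 40 libraries hold no orchiectomised group on chow, so whether an effect of orchiectomy depends on the diet cannot be told. Whether a sample number stands for 1 mouse is not in the labels, so the p-values reflect sample-to-sample spread, which may be technical. The labels used here give neither strain nor age.

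The testes supply testosterone, which acts in the brain itself and, after conversion by aromatase, through oestrogen receptors. Neurons of the arcuate and preoptic hypothalamus sense these steroids and, by way of gonadotropin-releasing hormone neurons, restrain the pituitary hormones that drive the testes; arcuate neurons that make neurokinin B and dynorphin are a main relay of this feedback. Arcuate neurons that make the feeding peptides of the Agrp and Pomc genes lie beside them. In bulk tissue, fewer cells of a type and less RNA per cell cannot be told apart.

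The supernatants of orchiectomised mice held between 9221431 and 12931869 counts (mean 10735435) and those of sham mice on HFD between 8739276 and 10447032 (mean 9803193). Of 4 library measures, total counts, the mitochondrial share, the share of the ribosomal-repeat RNA Gm42418 and the number of genes detected, none differed past adjustment (two-sided exact permutation test over the 1716 splits of 7 and 6 libraries, adjusted p of 0.305 or more). The first principal component held 41.6% of the variance and the groups overlapped on it. Its extreme end was orchiectomised sample 2 (score −61.8), which had 0.127% of Gm42418, the lowest share of the 20 supernatants, and 26.7% of mitochondrial counts. With 1 library of these groups left out at a time, the median log2 fold change kept 1 sign in 24 of the 44 gene lists described here and changed sign in 20. Neuron markers summed to between 7729 and 9650 CPM (counts scaled to a common library size) in orchiectomised and between 7680 and 9434 CPM in sham mice on HFD. The hypothalamic peptide genes Pmch (650 and 616 CPM), Oxt (483 and 487 CPM) and Hcrt (151 and 161 CPM) were abundant in orchiectomised and in sham mice on HFD. Aldh1l1 itself averaged 6.45 CPM in these supernatants and 148 CPM in the pull-downs of orchiectomised mice.

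No gene passed the test between orchiectomised and sham mice on HFD. With edgeR's quasi-likelihood test and Benjamini-Hochberg adjustment, 0 of 14628 genes tested (0%) had an adjusted p under 0.05; the smallest was 0.292, for Sytl4. An unadjusted p under 0.05 was reached by 439 genes (3%), 188 higher (1.29%) and 251 lower (1.72%) in orchiectomised mice. Without any effect, a share of 0.05 of genes would reach it on average, and 3% is below that. An unadjusted p of a single gene is therefore no call. DESeq2 called 3 genes, Sytl4, Cited1 and Plin4, all lower in orchiectomised mice, and limma voom called 0. The median log2 fold change over all genes was 0.02, and 7869 genes (53.8%) had a log2 fold change above 0. With 1 HFD library left out at a time, the number of genes at an unadjusted p under 0.05 moved both ways. It ran from 301 without sham sample 20 to 1050 without orchiectomised sample 2, and was 802 without sham sample 18. In each case edgeR called 0 genes. In simulated data the edgeR fit called 23% of genes averaging at least 1 CPM that were given a 1.5-fold change. A gene without a call may thus still have changed.

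**Figure D1:**
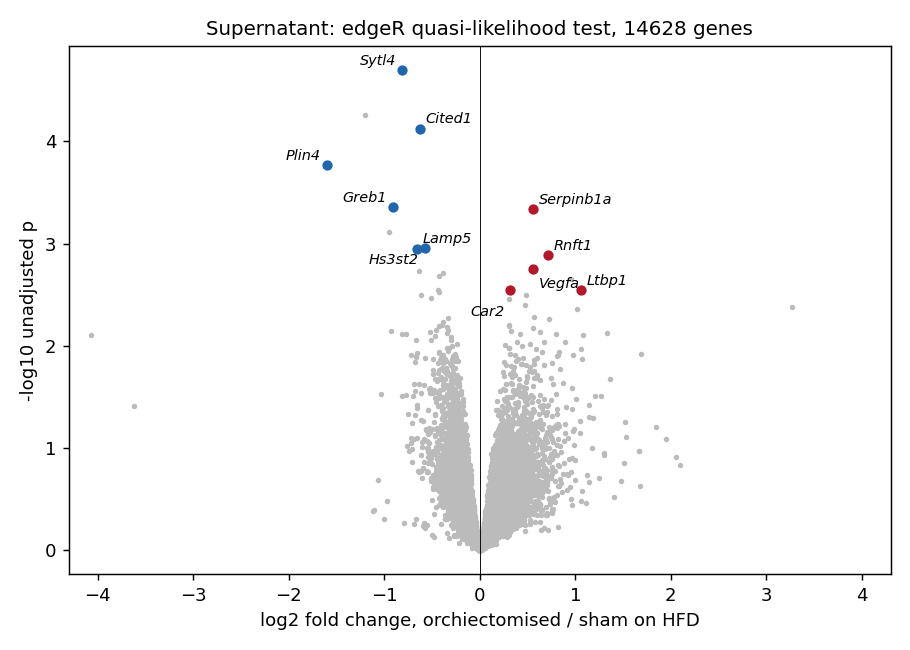
Each point is 1 of the 14628 genes, with the log2 fold change of orchiectomised over sham mice on HFD on the x axis and the negative log10 of the unadjusted edgeR p on the y axis. The named genes nearest to a call are blue (lower in orchiectomised mice) and red (higher), with Sytl4 at the top at −0.81; none passed adjustment.

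The genes nearest to a call were lower in orchiectomised mice, though none passed the test. Sytl4 encodes granuphilin, a Rab27 effector that docks secretory granules; the gene spans chrX:133936385-133981812 on the minus strand (GENCODE M21, GRCm38). It had between 9.46 and 13.9 CPM, median 11.0 CPM, in orchiectomised mice, against between 14.8 and 24.8 CPM, median 20.6 CPM, in sham mice on HFD. Every orchiectomised library lay below every sham HFD library. The log2 fold change was −0.81 ± 0.15 (SE), with an adjusted p of 0.292 by edgeR and 0.00428 by DESeq2. Sham mice on chow averaged 20.0 ± 4.47 CPM (SD, n = 7), near the 19.9 ± 3.51 CPM of sham mice on HFD (n = 6) and above the 11.4 ± 1.77 CPM of orchiectomised mice (n = 7). The chow libraries spread from 13.7 to 26.2 CPM, and the lowest lay inside the orchiectomised range.

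Cited1 encodes a coactivator without a DNA-binding domain of its own that binds CBP and p300; it also lies on the minus strand of the X chromosome, at chrX:102247381-102252181. Orchiectomised mice had between 14.7 and 18.5 CPM, median 17.3 CPM, and sham mice on HFD had between 20.1 and 33.5 CPM, median 25.4 CPM. These groups did not overlap either. The log2 fold change was −0.63 ± 0.13, with an adjusted p of 0.365 by edgeR and 0.0276 by DESeq2. The chow group averaged 21.1 ± 4.07 CPM, between orchiectomised mice (16.8 ± 1.56 CPM) and sham mice on HFD (26.1 ± 5.02 CPM). Its libraries spread from 17.0 to 28.2 CPM and overlapped both groups.

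Greb1, at chr12:16670615-16800886 on the minus strand, is an oestrogen-induced gene in human breast cancer cells whose product binds the oestrogen receptor. It was a low message: between 1.12 and 2.32 CPM, median 1.54 CPM, in orchiectomised mice and between 1.86 and 4.39 CPM, median 2.98 CPM, in sham mice on HFD. The highest orchiectomised library overlapped the lowest sham libraries. Its log2 fold change was −0.91 ± 0.22 (edgeR adjusted p = 0.945), and the chow group averaged 1.97 ± 0.500 CPM, nearer to the 1.61 ± 0.388 CPM of orchiectomised mice than to the 3.06 ± 0.953 CPM of sham mice on HFD. Lamp5, a membrane protein of neuronal endosomes, averaged 7.10 ± 1.87 CPM in orchiectomised and 11.2 ± 2.85 CPM in sham mice on HFD, a log2 fold change of −0.66 ± 0.18 (edgeR adjusted p = 0.945). Orchiectomised sample 2 had 11.1 CPM of Lamp5 and the other 6 between 5.75 and 7.18 CPM; without it the log2 fold change was −0.81. Hs3st2, which adds sulfate to heparan chains, had between 2.34 and 3.85 CPM in orchiectomised and between 4.12 and 5.69 CPM in sham mice on HFD, with no overlap, and a log2 fold change of −0.58 ± 0.15 (edgeR adjusted p = 0.945). Its chow libraries spread from 2.89 to 5.41 CPM, over both groups.

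**Figure D2:**
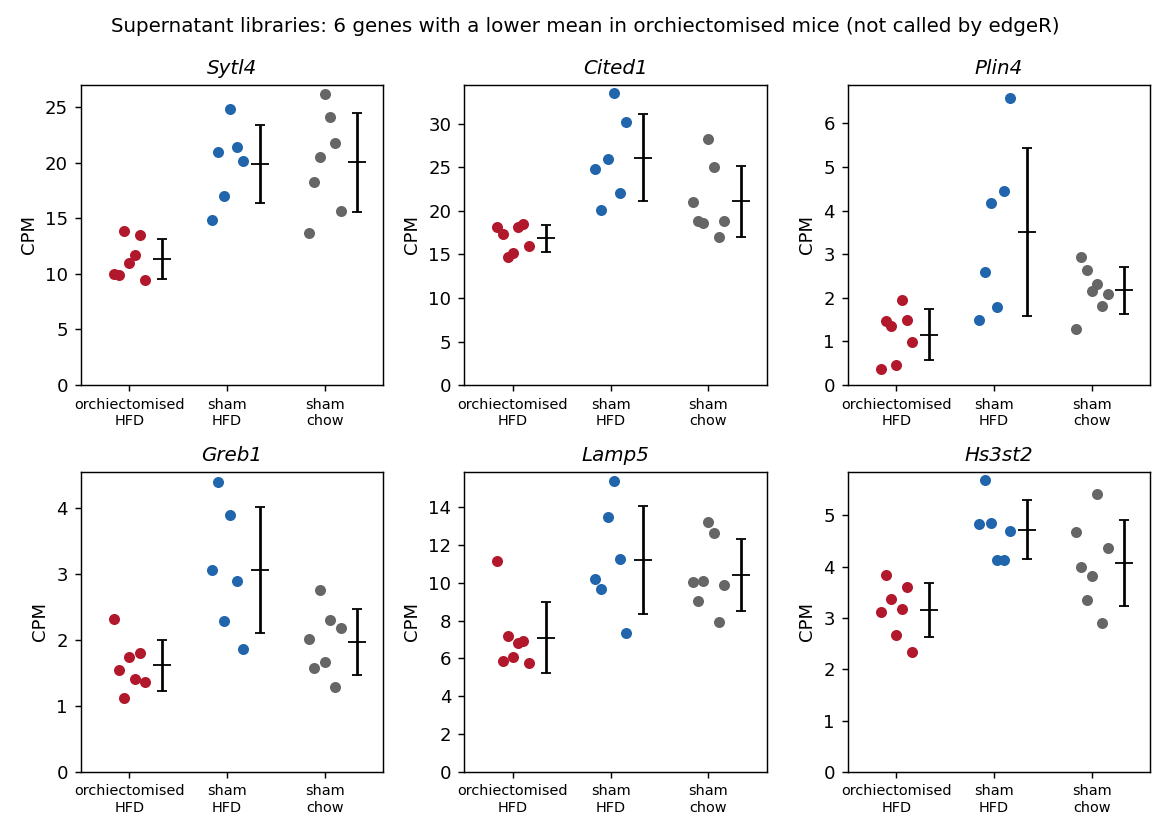
Scaled counts (CPM, y axis) of 6 genes in each supernatant library of orchiectomised mice on HFD, sham mice on HFD and sham mice on chow; bars give the mean ± SD. For Sytl4, all 7 orchiectomised libraries lie at or below 13.9 CPM and all 6 sham HFD libraries at or above 14.8 CPM.

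The 250 bases before the annotated start of Sytl4, Cited1 and Greb1 are shown because these 3 genes had the smallest p among the members of the list of sex-dependent hypothalamic genes. They are RefSeq promoters on GRCm38.p6, written 5′ to 3′ along the minus strand, at chrX:133981813-133982062, chrX:102252182-102252431 and chr12:16800887-16801136. Capitals mark TATAAA, the letters of a TATA box.
Sytl4: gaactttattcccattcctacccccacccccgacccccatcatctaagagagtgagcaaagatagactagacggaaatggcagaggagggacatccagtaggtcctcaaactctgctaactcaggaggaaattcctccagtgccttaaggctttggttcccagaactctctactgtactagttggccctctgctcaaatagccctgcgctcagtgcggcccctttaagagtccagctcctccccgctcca
Cited1: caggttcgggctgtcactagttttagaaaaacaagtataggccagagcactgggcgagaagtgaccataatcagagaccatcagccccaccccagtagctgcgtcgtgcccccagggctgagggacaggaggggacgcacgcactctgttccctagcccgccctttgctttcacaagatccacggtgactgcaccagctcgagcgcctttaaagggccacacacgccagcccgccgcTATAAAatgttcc
Greb1: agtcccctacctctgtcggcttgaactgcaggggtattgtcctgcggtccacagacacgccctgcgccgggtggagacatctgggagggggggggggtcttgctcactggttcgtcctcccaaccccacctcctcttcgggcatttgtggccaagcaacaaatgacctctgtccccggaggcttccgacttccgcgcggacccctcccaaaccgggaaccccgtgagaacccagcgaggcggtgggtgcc
TATAAA was searched on both strands and occurred only in the Cited1 window among the 3; it occurs in 12.4% of the 32851 promoters of the same length. The androgen response element, taken as AGAACA, 3 free bases and its reverse complement TGTTCT, is in 0.00913% of all promoters, and AGAACA alone on either strand, which overlaps it, is in 16.1%. The oestrogen response element, taken as GGTCA, 3 free bases and TGACC, is in 0.0639%. All were searched on both strands, and none of them was in the 3 windows. The oestrogen arm alone was not part of this search. TGACC can be read in the printed Cited1 and Greb1 windows, and its share over all promoters was not counted. RefSeq lists 3 promoters for Cited1 and 2 for Greb1, of which the first listed is shown.

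As a list, 18 sex-dependent hypothalamic genes were tested; Sytl4, Cited1 and Lamp5 had been put in it with earlier results of these data known. Its median log2 fold change was −0.17, against 0.02 over all genes, with 15 members below 0 and 3 above. No member was called by edgeR, and 6 members had an unadjusted p under 0.05, all lower in orchiectomised mice, where 1.72% of all genes did. Besides the 4 genes above these were Moxd1, a monooxygenase-like gene with higher expression in males in parts of the mouse forebrain (1.98 CPM in orchiectomised and 2.74 CPM in sham mice on HFD, log2 fold change −0.47 ± 0.21), and Pgr, the progesterone receptor. Without Sytl4, Cited1 and Lamp5 the list had 15 members, of which 12 lay below 0 and 3 had an unadjusted p under 0.05, and its median was −0.12.

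The third gene called by DESeq2 was Plin4, a coat protein of lipid droplets whose message is induced by glucocorticoids. It had between 0.357 and 1.96 CPM, median 1.35 CPM, in orchiectomised mice, against between 1.48 and 6.57 CPM, median 3.38 CPM, in sham mice on HFD. The upper orchiectomised libraries overlapped the lower sham libraries, and the chow libraries lay between 1.28 and 2.94 CPM. The log2 fold change was −1.60 ± 0.35, with an adjusted p of 0.627 by edgeR and 0.0488 by DESeq2; leaving out 1 library at a time gave between −1.78 and −1.32. In the pull-down Plin4 also had a value below 0, −0.78 ± 0.27 (edgeR adjusted p = 0.741), with 3.50 ± 1.42 CPM in orchiectomised and 6.00 ± 1.78 CPM in sham mice on HFD.

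Other glucocorticoid response genes were less uniform. Of 17 tested, 8 lay above and 9 below 0, with a median of −0.06, and 0 were called by edgeR. Fkbp5, a chaperone of the steroid receptors, had between 10.4 and 16.9 CPM in orchiectomised and between 14.6 and 19.7 CPM in sham mice on HFD (log2 fold change −0.30 ± 0.12, unadjusted p = 0.0187). Sult1a1, a sulfotransferase, averaged 5.22 and 7.20 CPM in these groups (−0.46 ± 0.21, unadjusted p = 0.0351); its pull-down value was −1.34 ± 0.28. These 2 genes and Plin4 were the 3 members with an unadjusted p under 0.05, all lower. Of all genes 1.72% were lower with such a p. Sgk1, a kinase induced by corticoids, had −0.43 ± 0.23, and −0.19 without sham sample 16. The values of Tsc22d3 (−0.06 ± 0.14), Per1 (0.02 ± 0.16) and Klf9 (0.03 ± 0.17), which respond to the same hormones, lay near 0 and changed sign when single libraries were left out. The list's median ran from −0.11 without orchiectomised sample 6 to 0.022 without orchiectomised sample 10.

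Among genes higher in orchiectomised mice, Serpinb1a had the smallest p. It encodes an inhibitor of neutrophil serine proteases and had between 30.3 and 43.6 CPM, median 35.9 CPM, in orchiectomised mice, against between 17.6 and 32.0 CPM, median 25.4 CPM, in sham mice on HFD. The groups overlapped at their edges. The log2 fold change was 0.55 ± 0.13 (edgeR adjusted p = 0.945). Rnft1, a ubiquitin ligase of the endoplasmic reticulum, averaged 2.64 ± 0.429 CPM in orchiectomised and 1.60 ± 0.324 CPM in sham mice on HFD (0.72 ± 0.19). Car2, the carbonic anhydrase of oligodendrocytes and other cells, had between 163 and 239 CPM and between 137 and 177 CPM in these groups (0.32 ± 0.10).

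Vegfa, the vascular endothelial growth factor, had between 13.4 and 21.7 CPM, median 17.5 CPM, in orchiectomised and between 9.80 and 14.9 CPM, median 11.5 CPM, in sham mice on HFD, a log2 fold change of 0.56 ± 0.16 (edgeR adjusted p = 0.945). The chow group, at 16.0 ± 4.21 CPM, lay near the 17.3 ± 2.72 CPM of orchiectomised mice. Ltbp1, which holds latent TGF-β in the matrix, had between 2.08 and 3.36 CPM in orchiectomised and between 0.742 and 1.88 CPM in sham mice on HFD. These groups did not overlap, and the log2 fold change was 1.06 ± 0.32 (edgeR adjusted p = 0.945). The chow libraries of Ltbp1 spread from 0.641 to 3.24 CPM, over both groups. Both genes were more abundant in the astrocyte pull-down, where Vegfa averaged 63.2 CPM in orchiectomised and 57.9 CPM in sham mice on HFD, and Ltbp1 19.5 CPM in orchiectomised and 18.8 CPM in sham mice. Their log2 fold changes there were 0.13 ± 0.13 and 0.06 ± 0.21, and astrocyte markers also had log2 fold changes above 0 in the supernatant; their part in these values was not tested.

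The libraries of the groups did not overlap for 14 genes (0.0957% of those tested), 9 lower (0.0615%) and 5 higher (0.0342%) in orchiectomised mice. With random labels, a gene would lack overlap in either direction with a probability of 0.00117 (exact, over 1716 splits of 7 and 6 libraries). The 14 genes are thus no more than random labels would give on average. Besides Sytl4, Cited1 and Hs3st2, the lower ones were Socs3, Cav1, Vapa, Pola2 and the unnamed transcripts 4933406B17Rik and 9330161L09Rik; all but Socs3 of these 6 were picked after their values were seen. Socs3, the feedback inhibitor of leptin and cytokine receptors, had between 0.897 and 1.68 CPM in orchiectomised and between 1.86 and 2.55 CPM in sham mice on HFD (log2 fold change −0.66 ± 0.24, edgeR adjusted p = 0.945). The chow libraries of Socs3 spread from 0.641 to 2.68 CPM, over both groups. 4933406B17Rik had between 0.551 and 1.12 CPM in orchiectomised and between 1.29 and 2.13 CPM in sham mice on HFD (−1.21 ± 0.24), with an edgeR adjusted p of 0.365. Cav1, the caveolin of endothelial cells, had −0.34, Vapa, a tether of the endoplasmic reticulum, −0.15, and Pola2, a DNA polymerase subunit, −0.35. The higher ones besides Ltbp1 were Ptgfr, the prostaglandin F receptor (0.67), Adamts4, an oligodendrocyte matrix protease (0.30), Afg3l1 (0.21) and Sept2 (0.12), also picked after their values were seen.

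Genes of neurons that carry steroid feedback mostly held values near or below 0 in the supernatant. Tac2, the neurokinin B gene, had between 20.8 and 62.9 CPM, median 25.6 CPM, in orchiectomised and between 30.1 and 52.4 CPM, median 34.3 CPM, in sham mice on HFD. The highest value was that of orchiectomised sample 2, and 5 of the other 6 lay below every sham library. The log2 fold change was −0.20 ± 0.22 (edgeR adjusted p = 0.945, 95% interval −0.65 to 0.25), and it was −0.44 without orchiectomised sample 2 and −0.083 without sham sample 16. Pdyn, the dynorphin precursor, averaged 35.1 CPM in orchiectomised and 43.7 CPM in sham mice on HFD (−0.32 ± 0.15, unadjusted p = 0.0469). Pgr, the progesterone receptor, averaged 40.3 and 48.1 CPM in these groups (−0.26 ± 0.11, unadjusted p = 0.0355).

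Esr1, oestrogen receptor alpha, had between 5.17 and 10.6 CPM, median 9.05 CPM, in orchiectomised and between 6.08 and 7.80 CPM, median 7.01 CPM, in sham mice on HFD, with a log2 fold change of 0.24 ± 0.15. The sham libraries lay inside the range of the orchiectomised ones. Prlr, the prolactin receptor, had −0.14 ± 0.11 (−0.092 without sham sample 18), and Tacr3, the neurokinin B receptor, −0.02 ± 0.16; each had an edgeR adjusted p of 0.945 or more, and the sign of Tacr3 turned when single libraries were left out. Over all genes 53.8% lay above 0, and 1.72% were lower with an unadjusted p under 0.05. Of the 12 steroid-feedback genes tested, 10 lay below and 2 above 0, with a median of −0.06. None was called, and 2, Pdyn and Pgr, had an unadjusted p under 0.05. The median was −0.10 without orchiectomised sample 2, with 3 above 0, and ran from −0.12 without orchiectomised sample 10 to −0.021 without orchiectomised sample 6.

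The pull-down of the same samples gave other values for these genes. Tac2 there averaged 7.22 ± 4.08 CPM in orchiectomised and 1.16 ± 0.729 CPM in sham mice on HFD, a log2 fold change of 2.65 ± 0.44 (edgeR adjusted p = 0.0579), where the supernatant had 32.8 CPM in orchiectomised and 37.8 CPM in sham mice on HFD. The difference between the effects, supernatant minus pull-down, was −2.84 ± 0.48 for Tac2 (edgeR adjusted p = 0.00978), the only gene called of 15629 tested (0.0064%). With the sample number as a replicate block, which pairs both fractions of a sample, it was −2.76 with an adjusted p of 0.176, and 0 genes were called. It also missed the threshold with limma voom (−2.73, adjusted p = 0.477) and with the 26 libraries on HFD alone (−2.86, adjusted p = 0.238). For Esr1 the difference was −1.11 ± 0.27 (edgeR adjusted p = 0.752) and for Pdyn −0.94 ± 0.28 (edgeR adjusted p = 0.941). An unadjusted p under 0.05 was reached by 692 genes (4.43%) for this difference. In the pull-down alone 918 of 14059 genes (6.53%) reached it, and 0 were called.

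**Figure D3:**
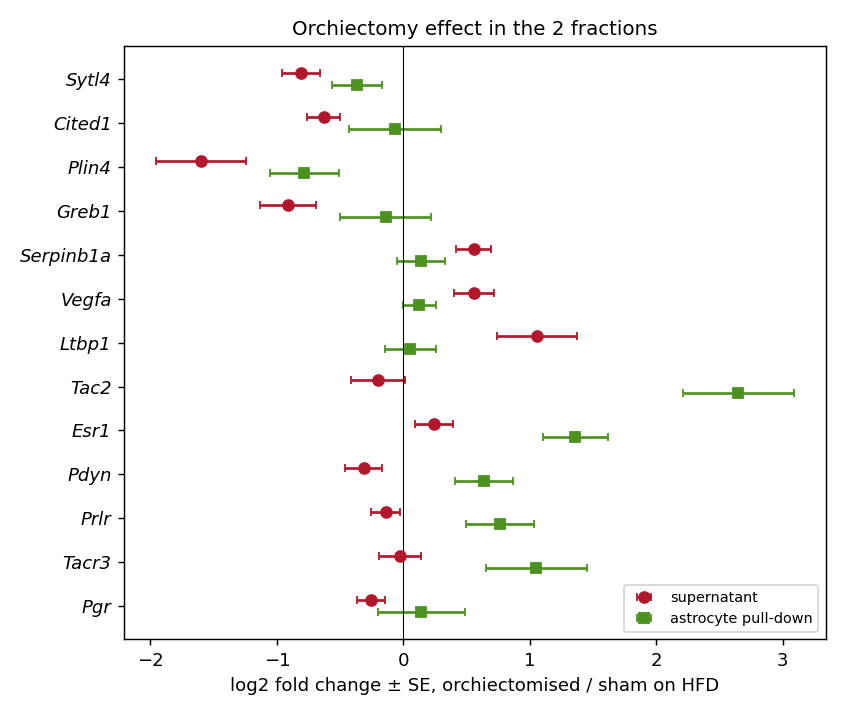
Log2 fold change ± SE of orchiectomised over sham mice on HFD (x axis) for 13 genes (y axis) in the supernatant (red circles) and in the astrocyte pull-down (green squares). Tac2 lies at −0.20 in the supernatant and 2.65 in the pull-down, while Sytl4, Cited1, Plin4 and Greb1 lie below 0 in both. Their pull-down values include −0.37 ± 0.19 for Sytl4, −0.06 ± 0.36 for Cited1 and −0.14 ± 0.36 for Greb1.

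The feeding peptides of the arcuate nucleus had values below 0, none of them called. Agrp, which drives feeding, was a low message with between 1.25 and 2.24 CPM, median 1.77 CPM, in orchiectomised and between 1.69 and 4.12 CPM, median 2.62 CPM, in sham mice on HFD. The groups overlapped over the lower sham libraries, and the chow libraries spread from 1.39 to 4.20 CPM. The log2 fold change was −0.68 ± 0.26 (unadjusted p = 0.0144, edgeR adjusted p = 0.945). Npy, made by the same neurons, had −0.19 ± 0.16, Pomc, the melanocortin precursor, −0.30 ± 0.25, and Cartpt, a satiety peptide gene, −0.15 ± 0.13. Orchiectomised sample 2 had the highest level of its group for Npy (40.7 CPM), Pomc (38.2 CPM) and Cartpt (128 CPM) and the lowest for Agrp; without it the log2 fold changes were −0.30 for Npy, −0.44 for Pomc, −0.21 for Cartpt and −0.61 for Agrp. Leaving out a sham library moved them towards 0: Pomc was −0.042 without sham sample 1, Npy −0.096 without sham sample 16 and Cartpt −0.069 without sham sample 20.

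**Figure D4:**
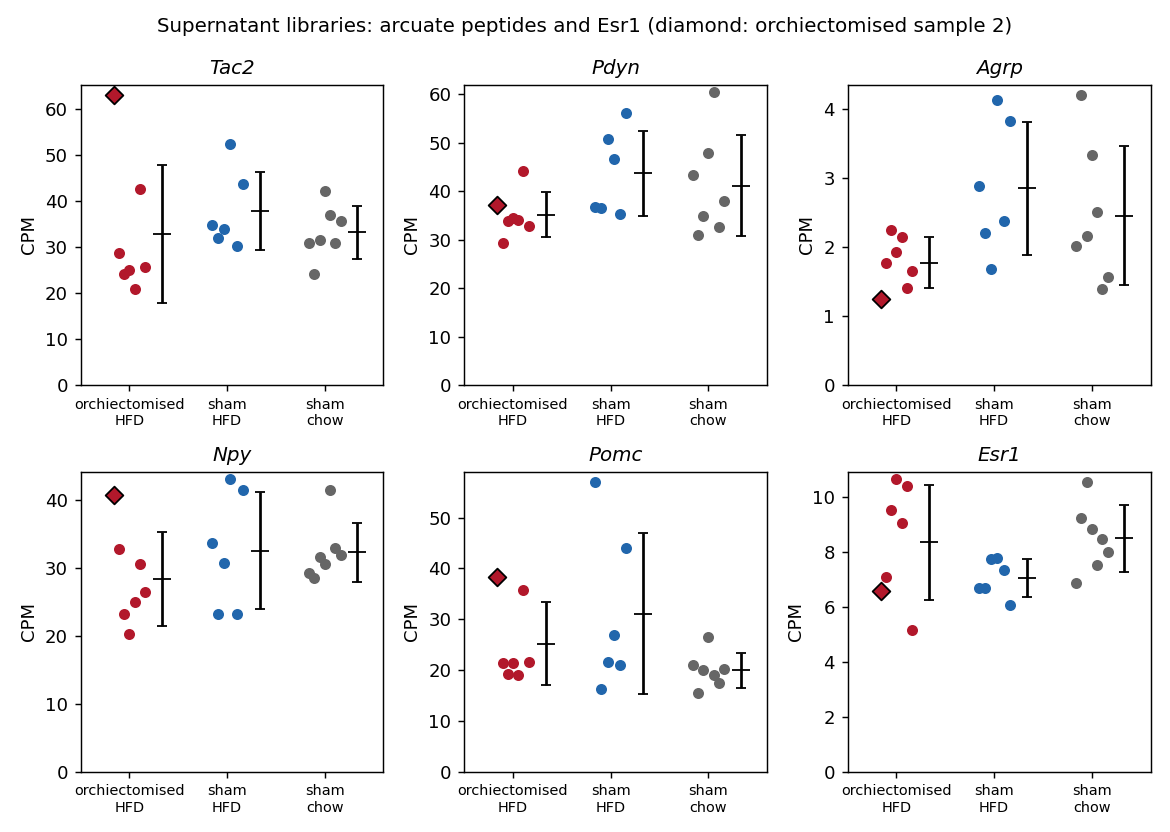
Scaled counts (CPM, y axis) of 5 arcuate peptide genes and Esr1 in each supernatant library of orchiectomised mice on HFD, sham mice on HFD and sham mice on chow; bars give the mean ± SD and the diamond is orchiectomised sample 2. That sample stands at 62.9 CPM of Tac2, above all other libraries.

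Summed over the arcuate list, orchiectomised sample 2 had 692 CPM, the other orchiectomised libraries between 316 and 424 CPM, and sham mice on HFD between 321 and 511 CPM. Of 11 arcuate genes tested 3 lay above 0, with a median of −0.19, which was −0.30 without orchiectomised sample 2 and −0.096 without sham sample 16. Over 30 hypothalamic neuropeptide genes 8 lay above and 22 below 0, with a median of −0.12, which was −0.24 without orchiectomised sample 2 and −0.066 without sham sample 16. Over all genes 53.8% lay above 0, and 1.72% were lower with an unadjusted p under 0.05. Agrp, Pdyn and Tac2 are in the arcuate and the neuropeptide list, so these lists are not independent. Of the 30 neuropeptide genes 3 had an unadjusted p under 0.05, all lower: Agrp, Pdyn and Nmb. Nmb, neuromedin B, averaged 2.84 CPM in orchiectomised and 3.98 CPM in sham mice on HFD (−0.48 ± 0.18). The magnocellular peptides Avp, vasopressin (97.5 and 101 CPM in these groups, −0.04 ± 0.13), and Oxt, oxytocin (483 and 487 CPM, −0.01 ± 0.12), showed a difference within their error and of no stable sign. Npvf, the gene of RFamide-related peptides that inhibit gonadotropin release, averaged 7.46 CPM in orchiectomised and 5.14 CPM in sham mice on HFD (0.54 ± 0.27), and Ucn3, urocortin 3, 1.37 CPM in orchiectomised and 0.869 CPM in sham mice on HFD (0.64 ± 0.33); without orchiectomised sample 2 Npvf had 0.36 and Ucn3 0.35.

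Steroid receptors and androgen-responsive genes as groups centred on 0. Of 16 receptors and coregulators tested 7 lay above and 9 below 0 (median −0.02), and Pgr was the 1 member with an unadjusted p under 0.05. Fkbp4, a cochaperone of steroid receptors, averaged 166 CPM in orchiectomised and 196 CPM in sham mice on HFD (−0.24 ± 0.13, and −0.12 without sham sample 20), and Nr3c1, the glucocorticoid receptor, 92.5 and 74.6 CPM (0.31 ± 0.19). Of 20 androgen response genes, known mainly from prostate cells, 9 lay above and 11 below 0 (median −0.01), and Fkbp5 was the 1 member with an unadjusted p under 0.05. Among 20 genes of leptin, insulin and growth hormone signalling the median was 0.03; Socs3 alone had an unadjusted p under 0.05, and Lepr, the leptin receptor, had 0.10 ± 0.44, which was −0.17 without orchiectomised sample 14 and 0.31 without orchiectomised sample 2. Of 18 feeding receptors 8 lay above 0 (median −0.02, which was −0.14 without orchiectomised sample 2 and 0.047 without orchiectomised sample 22), with Mc3r, a melanocortin receptor, at a median of 1.37 CPM in orchiectomised and 2.23 CPM in sham mice on HFD (−0.45 ± 0.18, unadjusted p = 0.0219). Each of these lists had 0 members called by edgeR. Of all genes 53.8% lay above 0 and 3% had an unadjusted p under 0.05.

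Of the lists of brain cell type markers, that of astrocytes had the median farthest from 0, with no member called. All 20 astrocyte markers had a log2 fold change above 0, with a median of 0.35, against 53.8% of all genes and their median of 0.02; 0 were called and 0 had an unadjusted p under 0.05. Aqp4, the water channel, had between 14.9 and 67.0 CPM in orchiectomised and between 9.61 and 47.9 CPM in sham mice on HFD (0.92 ± 0.49), while Aldh1l1 had 0.19 ± 0.56 and Gfap 0.19 ± 0.28. Single libraries moved these values: Aldh1l1 ran from 0.0068 without orchiectomised sample 22 to 0.82 without sham sample 1, Gfap from 0.071 without sham sample 18 to 0.41 without sham sample 1, and the median of the list from 0.16 without orchiectomised sample 22 to 0.82 without sham sample 1. The list summed to between 2773 and 7283 CPM in orchiectomised, between 2742 and 7467 CPM in sham mice on HFD and between 2365 and 6475 CPM on chow, so that libraries of 1 group differed more than the groups. The highest sums were 7283, 6863 and 6161 CPM in orchiectomised samples 22, 6 and 11, and 7467 CPM in sham sample 1. In the pull-down the median of this list was −0.06.

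The other cell types held medians from −0.06 to 0.14, apart from red blood cells and pituitary. Neuron markers had a median of 0.04 (12 of 18 above 0), which was 0.00086 (9 of 18) without orchiectomised sample 2 and −0.046 (7 of 18) with 1 surrogate variable in the fit. The median was 0.03 for oligodendrocytes, 0.07 for their precursors, −0.06 for microglia and brain macrophages, −0.06 for endothelial cells, −0.01 for mural cells, 0.14 for fibroblasts, 0.03 for tanycytes and ependymal cells and 0.02 for choroid plexus. The 5 red blood cell genes had a median of 0.67, and −0.24 without orchiectomised sample 6, which had 14965 CPM of them where no other orchiectomised library exceeded 3378 CPM. Pituitary hormones were nearly absent: 2 of the 10 markers were abundant enough to test, and the list summed to between 3.73 and 12.3 CPM in orchiectomised and between 1.96 and 7.70 CPM in sham mice on HFD. Among markers of other brain regions the medians ran from −0.19 in the arcuate to 0.07 in the ventromedial nucleus. Summed levels of orchiectomised and sham HFD libraries overlapped in every one of the 44 lists.

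Of functional lists, immediate early genes, which neurons and glia switch on within minutes of stimulation, had a median of 0.14, with 15 of 19 above 0. Over all genes 53.8% lay above 0. The 4 members below 0 included Egr3 (−0.42 ± 0.28) and Nr4a3 (−0.24 ± 0.28). Klf2, an endothelial factor of shear stress (0.56 ± 0.21), Jun (0.37 ± 0.17) and Junb (0.46 ± 0.22) had an unadjusted p under 0.05, and 0 were called by edgeR. Of all genes 1.29% had such a p and were higher. Fos averaged 6.94 CPM in orchiectomised and 3.53 CPM in sham mice on HFD (0.98 ± 0.51). Interferon response and MHC class I genes had a median of 0.14, with 16 of 19 above 0. Their largest value, that of the antiviral gene Rsad2 (1.37 ± 0.54), rested on orchiectomised sample 6 with 30.2 CPM, where the other orchiectomised libraries had between 2.63 and 5.14 CPM and sham mice on HFD between 1.56 and 5.19 CPM; without it the value was 0.27. H2-K1 had 0.40 ± 0.23 and shares reads with other class I genes, so its count is uncertain.

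Housekeeping lists had medians below 0, whose size depended on single libraries. Nuclear genes of the respiratory chain had a median of −0.10 with 6 of 79 above 0, cytosolic ribosomal proteins −0.07 with 19 of 86, mitochondrially encoded transcripts −0.08 with 5 of 17 and glycolysis −0.08 with 3 of 16. Over all genes 53.8% lay above 0, and 49.9% without orchiectomised sample 2. Without orchiectomised sample 2 the median was −0.17 for the respiratory chain (4 of 79 above 0), −0.096 for ribosomal proteins (14 of 86), −0.23 for mitochondrially encoded transcripts (4 of 17) and −0.18 for glycolysis (1 of 16), where that of all genes was −0.00035. Without sham sample 20 it was −0.060 for the respiratory chain, −0.030 for ribosomal proteins and −0.028 for glycolysis, and without sham sample 16 it was −0.0052 for mitochondrially encoded transcripts. With 1 surrogate variable in the fit the median was −0.04 for the respiratory chain and −0.01 for ribosomal proteins. In that fit it was −0.06 for mitochondrially encoded transcripts and 0.0040 for glycolysis. The summed level of the mitochondrially encoded transcripts was not lower. Its median was 227665 CPM in orchiectomised and 217380 CPM in sham mice on HFD, with overlapping ranges. The mean mitochondrial share was 22.7% and 22.1% in these groups and did not differ past adjustment. Without orchiectomised sample 2 the difference in share was −0.041 percentage points. Sdhc, a subunit of succinate dehydrogenase, had between 72.5 and 129 CPM in orchiectomised and between 104 and 153 CPM in sham mice on HFD (−0.28 ± 0.12, unadjusted p = 0.0346). Fatty acid synthesis and oxidation had a median of 0.08, which ran from 0.0088 without orchiectomised sample 22 to 0.18 without sham sample 1, with Ppara, the receptor that drives oxidation, at 0.90 ± 0.41, and cholesterol synthesis of −0.01. Circadian clock genes had a median of 0.08 (15 of 19 above 0), with Arntl at −0.28 ± 0.16. None of these lists had a member called by edgeR.

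**Figure D5:**
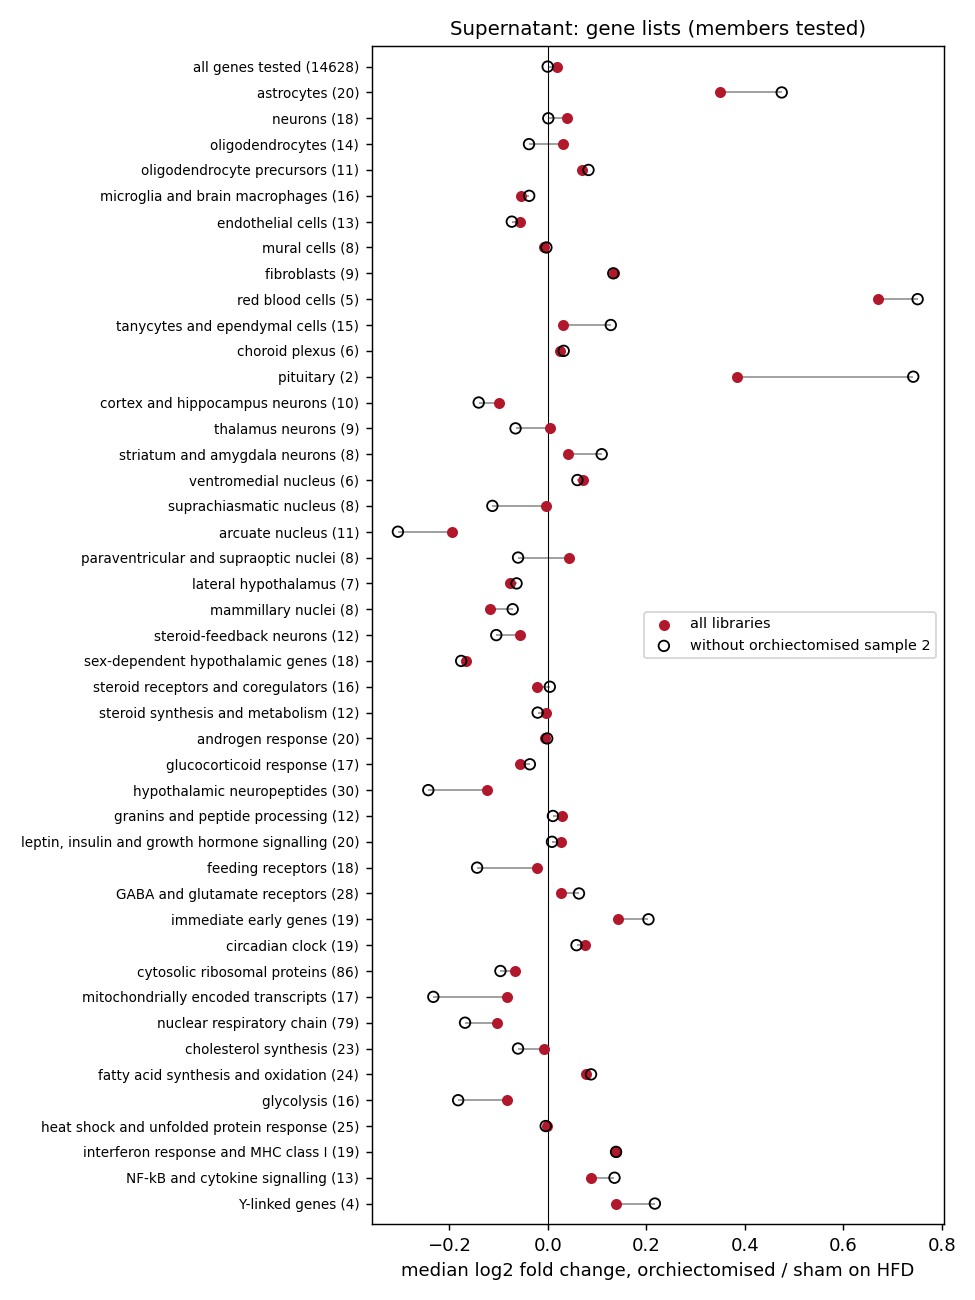
Median log2 fold change of orchiectomised over sham mice on HFD (x axis) for all genes and for 44 gene lists (y axis, with the number of members tested), with all libraries (red) and without orchiectomised sample 2 (open). The astrocyte median is 0.35 and the arcuate median moves to −0.30 without that sample.

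The largest fold changes came mostly from genes with low or uncertain counts. Of 47 genes with a log2 fold change beyond 1 in either direction, 13 averaged at least 5 CPM in a group. Of those, 9 were clustered protocadherins, which are neuronal adhesion genes of the alpha, beta and gamma clusters. Variants share their last exons in the alpha and gamma clusters but not in the beta cluster. How the 9 genes divide between the clusters is not given here. Pcdhgb2 had a median of 0.0891 CPM in orchiectomised and 7.18 CPM in sham mice on HFD (−4.07 ± 1.36, edgeR adjusted p = 0.945), and Pcdhgc5 a median of 1.31 CPM and 0.861 CPM with 1 orchiectomised library, that of sample 2, at 56.9 CPM (3.27 ± 1.01, and 0.44 without it). Both were picked after their values were seen. Tags near the end of a message cannot tell variants with common last exons apart, so how the counting shared them out between variants was not tested here.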

How the data were processed

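Messenger RNA was measured in 20 supernatant and 20 pull-down libraries; per the labels' protocols, an oligo-dT bead kit isolated the RNA and QuantSeq 3' FWD was the library kit, which reads tags near the end of a message. The submitters' processing notes name Trim Galore 0.6.4, Salmon 1.9.0 and GRCm38. Not given in the sources used here are the annotation, the strand setting and how transcripts became genes. For 26792 gene symbols the authors deposited estimated counts, and 12.7% of those above 0 are fractional. Salmon divides a read among all the transcripts it matches, which makes genes with near-identical copies, overlapping or antisense partners uncertain. A second table deposited by the authors, named TPM, holds a signal without length normalisation: 25089 of 26783 shared symbols equal the counts multiplied by a library factor (tolerance 0.01 counts), and whole reads were recovered for 89.4% of values; it served only as an alternative, in which edgeR called 0 genes.

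Counts were rounded and tested with edgeR 4.0.16 in R 4.3.3: genes kept by filterByExpr (minimum count 10), TMM scaling and a robust quasi-likelihood fit of the 3 supernatant groups, with calls at a Benjamini-Hochberg adjusted p under 0.05 over all genes. Standard errors (SE) came from the F statistic, and CPM are TMM-scaled counts given per library or as mean ± SD. The difference of the effects between fractions was fitted over all 40 libraries in 6 groups. DESeq2 1.42.0, limma 3.58.1 (voom), sva 3.50.0, other scalings, filters and library sets were alternatives. The supernatant fit was tested on simulated data with 200 changed genes at each fold, all averaging at least 1 CPM. It called 23% of them at 1.5-fold, 77.5% at 2-fold and 96% at 3-fold. Genes tested below 1 CPM were not among them. Each gene was drawn independently, so variation that genes share across libraries was absent, and these shares need not hold for the real libraries. Fractions of 1 sample share a sample number in the labels, which pairs them: over the 20 pairs, deviations from the group means correlated between −0.0688 and 0.153, with 5 pairs over 0.1 and 8 pairs best with their own number. The supernatant groups share no number. Total counts of single libraries are given in ranges, and the spread between libraries sets the error of every value. Tag counts carry no molecular identifiers.

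The members, the 44 gene lists and the tests were chosen with earlier results of these data known. Genes named were, of the genes called with a regular symbol and at least 1 CPM in a group, those with the smallest p in each direction, or, where fewer than 5 were called in a direction, the 5 with the smallest p there; the 2 members with the smallest p of each list with none called; and 19 genes in every case. Further list members and the genes without overlap are named as such. Gene positions come from GENCODE M21 (GRCm38), which holds 98.2% of the symbols tested, and promoters are those of RefSeq. Some genes that this rule or the lists hold are not reported here.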

Additional observations from a re-analysis of the deposited data

Results flagged for a closer look

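A library far from the others of its group was looked for in 248 groups of values (named genes and summed lists in each HFD group of supernatants, Dixon's 95% criterion), and 30 groups held one; chance gives about 1 in 20. Orchiectomised sample 2 stood above the other 6 with 18.8 CPM of Tacr3 (others at most 11.4 CPM), 11.1 CPM of Lamp5, 625 CPM of Oxt, 20.7 CPM of Gpr17, 128 CPM of Penk, 81.4 CPM of Nts (others at most 44.1 CPM), 12.1 CPM of mt-Tn and 692 CPM over the arcuate list. It stood below them with 265 CPM over the oligodendrocyte precursor markers. Orchiectomised sample 6 had 14965 CPM over the red blood cell genes, among them 47.9 CPM of Alas2 and 850 CPM of Hbb-bt, together with 30.2 CPM of Rsad2, 219 CPM of Tubb3 and 14.2 CPM of Pecam1.

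Sham sample 1 stood above the other sham HFD supernatants with 7467 CPM over the astrocyte markers (others at most 4122 CPM), among them 15.6 CPM of Aldh1l1, 47.9 CPM of Aqp4 and 590 CPM of S100b, and with 24.0 CPM of Vcam1, 17.9 CPM of Crym and 86.6 CPM over the mural cell markers. Orchiectomised sample 17 had 121 CPM of Avp, 41.2 CPM of C1qc and 9.10 CPM of Fezf1, above the others, and 1.80 CPM of Rnft1, below them. Orchiectomised sample 11 had 2.85 CPM of Sult1a1, below the others, and 173 CPM of Hspd1, above them. Sham sample 20 had 396 CPM of Calb2 and 134 CPM of Grin1, above the others.

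In the fit that did not pair the fractions, the effect of orchiectomy on Tac2 differed between them by −2.84 (supernatant minus pull-down, edgeR quasi-likelihood adjusted p = 0.00978). The call was lost with the sample number as a replicate block (edgeR adjusted p = 0.176). It was also lost with limma voom (adjusted p = 0.477) and with the 26 libraries on HFD alone (edgeR adjusted p = 0.238).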

How the results depend on the processing

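For the supernatant comparison edgeR called 0 genes with RLE size factors, without mitochondrial genes and Gm42418, with no filter on low counts (smallest adjusted p = 0.0647), with a minimum count of 30, with the 13 libraries alone, without the robust option, on the second table, and without each of the 13 HFD libraries in turn; DESeq2 called 3 and limma voom 0. With a covariate added after seeing the data, the share of Gm42418 (smallest adjusted p = 0.0979) or 1 surrogate variable (0.0697), edgeR also called 0. For the difference between the fractions, 0 genes were called with the replicate block, limma voom or the 26 HFD libraries, and 1, Tac2, with RLE. No paired analysis was possible within the supernatant because orchiectomised and sham mice share no sample number. The surrogate variable turned the signs of Tacr3 (0.042), Avp (0.012), Oxt (0.046) and Kdm5d (−0.030). Between the fractions, Fkbp5 turned with the block (0.052) and with voom (0.12), Akt1 with RLE (−0.0014) and with 26 libraries (−0.0051), and Aldoa with 26 libraries (−0.0025). The cause was not tested.

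Without 1 library each, log2 fold changes that turned ranged from −0.18 to 0.025 for Tacr3, −0.093 to 0.078 for Oxt, −0.022 to 1.05 for Alas2, −0.11 to 0.97 for Hbb-bt, −0.014 to 0.46 for Tshb and −0.11 to 0.0098 for Avp. The orchiectomised minus sham difference ranged from 566169 to 1184580 in total counts, −0.0407 to 1.20 percentage points in the mitochondrial share, −0.0019 to 0.697 in the Gm42418 share and 280 to 537 in genes detected. Low genes such as Plin4, Agrp and Greb1 rest on few counts per library.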
